A study of Mus musculus with 8 samples.

Results

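The genes examined here are named after the core proteins of the spliceosomal small nuclear ribonucleoproteins (snRNPs), the particles that recognise and remove introns, and most of them encode such proteins. They were chosen by symbol alone: every gene whose symbol begins with Snrp, Sf3a or Sf3b, with Lsm and a digit, or with Prpf, leaving out symbols that contain -ps. The letters also take in relatives that act elsewhere, among them Lsm1, Lsm10, Lsm11, Lsm14a and Lsm14b, and the pseudogene Snrpert. Of 55401 genes in the tables, 50 matched these letters, 2 of them were left out for -ps, and 48 remained. The values came from AML12 cells, a hepatocyte line established from the liver of a mouse carrying a transgene for transforming growth factor alpha. There were 4 control dishes, kept for 1 h without a field, and 4 dishes exposed for 1 h to Opti-ELF-WMF, a weak pulsed magnetic field of 100 mG peak intensity with 4 ms pulses stepping from 1 to 8 Hz. All dishes were grown from one cell batch, and unexposed dishes were held in a separate incubator of like make where no field was applied, so exposure and incubator cannot be told apart, and p-values measure only the spread between these dishes. The question was how transcript levels differed after the 1 h exposure.

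Each major spliceosomal snRNP carries a small nuclear RNA wrapped in a ring of Sm proteins, except U6, which carries a ring of the related LSm proteins. U1 marks the 5′ splice site and U2, with the SF3a and SF3b complexes, marks the branch point. The U4/U6.U5 tri-snRNP then joins, U1 and U4 leave, and proteins around the Prp19 ubiquitin ligase help hold the active site together. Transcribed intron-containing genes of a hepatocyte generally need this machinery, and most genes that encode its core proteins are accordingly known as housekeeping genes.

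The deposited values are TPM, transcripts per 1000000, which divide a gene's reads by its length and scale every library to the same total, so the depth behind each value is unknown. The number of genes with any TPM ran from 19386 to 20114 over the dishes. Mitochondrially encoded transcripts took 8.69% to 9.42% of all TPM in control dishes and 5.99% to 7.69% in exposed dishes, without overlap, and since the total is fixed, the other genes together took a larger share in exposed dishes. Of 16 hepatocyte markers, 12 reached 1 TPM on average, among them Ttr and Hnf4a, whereas Asgr1, Cyp2e1 and G6pc stayed under 0.05 TPM. The summed level of the hepatocyte markers was 5530 to 5799 TPM in control and 5896 to 6114 TPM in exposed dishes. The keratins Krt8 and Krt18 carried most of it (4031 to 4217 and 4296 to 4503 TPM), and the other 14 markers summed to 1499 to 1582 and 1519 to 1618 TPM, overlapping. Mean levels of Alb (55.1 and 49.7 TPM), Ttr (358 and 348 TPM), Apoa1 (4.54 and 3.77 TPM) and Cebpa (9.21 and 7.94 TPM) were lower in exposed dishes. Of the other cell types checked, 5 of 6 cholangiocyte markers (sums of 1665 to 1764 TPM in control and 1690 to 1801 TPM in exposed dishes), 1 of 9 fibroblast or stellate cell markers (Vim, which made up nearly all of 1306 to 1403 and 1382 to 1510 TPM) and 2 of 6 macrophage markers (140.3 to 151.5 and 144.9 to 156 TPM) reached that level, and none of 5 endothelial markers did (sums up to 0.06 and 0.09 TPM). Cd14, at a mean of 147 TPM over the dishes, made up nearly all of the macrophage sum, and Cd68 was at 1.6 TPM. The cholangiocyte marker Epcam, the stellate cell markers Pdgfrb, Lrat and Thy1 and the macrophage markers Adgre1, Clec4f and Csf1r were under 0.05 TPM.

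All 48 genes passed the filter for testing, 1 TPM or more in 4 or more dishes, which 12122 genes met. They were abundant: their median level was 95.2 TPM against 21.9 TPM for all tested genes, 40 of the 48 lay above that all-gene median, and 22 reached 100 TPM. Levels spanned 78.8-fold, from 4.87 TPM for Lsm11 to 384 TPM for Prpf19. Their median coefficient of variation among dishes was 3.85% in control and 4.33% in exposed dishes, against 5.16% and 5.65% for all tested genes. That comparison was not matched for level, so a lower spread cannot be told apart from their higher abundance.

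**Figure D1:**
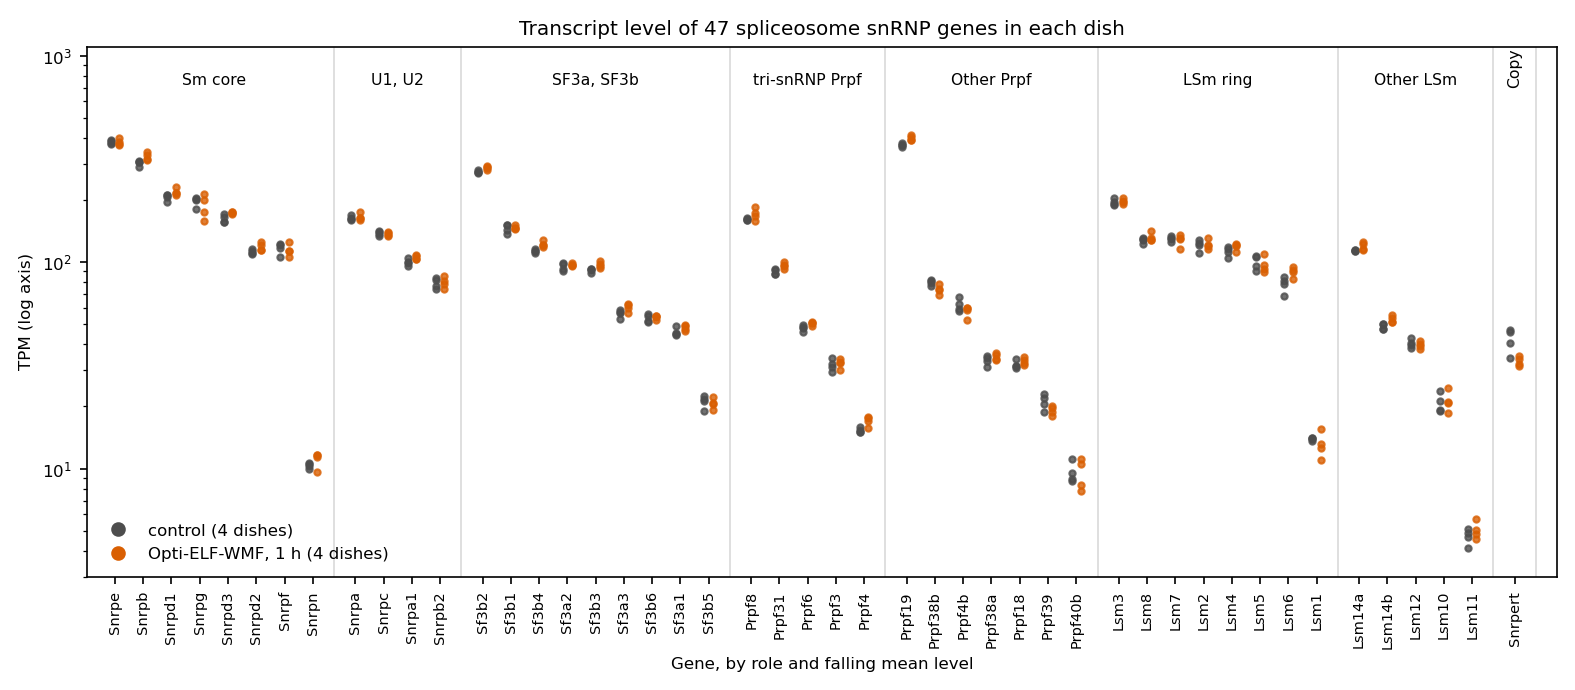
TPM of 47 of the 48 genes (log axis) in the 4 control dishes (grey) and the 4 exposed dishes (orange), grouped by the role of the protein and ordered by mean level. Levels ran from 4.87 TPM for Lsm11 to 384 TPM for Prpf19, and the spread among dishes of a gene was small beside the spread among genes.

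Transcripts for one particle did not stand at one level, whereas each ring holds its subunits in equal numbers. Among the Sm core genes the order by mean TPM was Snrpe (381), Snrpb (313), Snrpd1 (212), Snrpg (191), Snrpd3 (168), Snrpd2 (116), Snrpf (115) and Snrpn (10.7). Over the 8 dishes Snrpd1 overlapped with Snrpg, Snrpg with Snrpd3, and Snrpd2 with Snrpf, and the other neighbours did not overlap. Snrpn, the imprinted relative of Snrpb known chiefly from neurons, was 35.6-fold below Snrpe, and its exons overlap on the same strand with those of Snurf (mean 24.7 TPM), so reads of this pair could be split between them.

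In the LSm ring, Lsm3 was highest (196 TPM), apart from all others. Lsm8 (129.9), Lsm7 (129), Lsm2 (121), Lsm4 (116), Lsm5 (98.4) and Lsm6 (83.7) followed, with neighbours among them overlapping. Lsm1 was lowest (13.5), apart from all. Lsm8 defines the nuclear ring on U6 and Lsm1 the cytoplasmic ring that takes part in mRNA decay, and no dish brought the level of Lsm1 (11.03 to 15.53 TPM) near that of Lsm8 (123 to 141 TPM). The 9 SF3a and SF3b genes ran from Sf3b2 (281 TPM) to Sf3b5 (20.9 TPM), a 13.45-fold range. Sf3b1, whose protein clamps the branch point helix, stood second at 146 TPM. The 5 tri-snRNP genes ran from Prpf8 (166 TPM) to Prpf4 (16.2 TPM) with no overlap between neighbours.

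Near-identical pseudogenes limit what the level of some of these genes means. Of the 48 genes, 17 had at least 1 other transcript of at least 95% identity over at least 80% of the shorter one, in 56 pairs. Not all of these are pseudogenes: many pairs of Lsm11, Sf3b1 and Snrpc were with miRNA transcripts at 0 TPM. For 5 of the 17 the other gene reached 5% of the member's own mean TPM. These were Snrpe, Snrpg and Lsm5 with pseudogenes, Snrpert with its parent Snrpe, and Snrpn with the protein-coding Snurf. The symbol rule itself drew in 1 pseudogene copy: Snrpert (chr2:131322088-131322366, minus strand, GRCm38), a processed pseudogene of Snrpe (chr1:133603871-133610291, minus strand) that lies within the gene Rnf24 on the same strand. Its 279 bases differ from the coding sequence of Snrpe at 3 positions, an identity of 98.9%.

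Snrpert held 34.2, 45.7, 40.4 and 46.9 TPM in the 4 control dishes and 35.2, 32.2, 31.4 and 33.9 TPM in the 4 exposed dishes. Exposed dishes 2 to 4 lay below every control dish, and exposed dish 1 lay above control dish 1, so the conditions overlapped. The difference in log2(TPM + 1), exposed minus control, was -0.32 ± 0.09 (limma adjusted p = 0.155), the largest in size among the 48 genes. Here and below, a difference is on this scale, its error is the SE of the limma fit, and n = 4 dishes per condition. Its parent Snrpe was at 375, 384, 389 and 376 TPM in control and 382, 368, 375 and 398 TPM in exposed dishes, interleaved, with a difference of -0.002 ± 0.03 (limma adjusted p = 0.982). Snrpert made up 9.87% ± 1.23 (SD, n = 4) of the sum of both in control and 8.02% ± 0.310 (SD, n = 4) in exposed dishes. The sum was 423 ± 9.75 TPM in control and 414 ± 13.8 TPM in exposed dishes (SD, n = 4 each), with a difference of -0.03 on the log2 scale (limma adjusted p = 0.661).

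For Snrpg (chr6:86371304-86379328, plus strand), the smallest Sm protein, the copy was assigned about as much TPM as the gene. Gm8186 (chr17:26098991-26099221, minus strand) is a processed pseudogene whose 231 bases equal the Snrpg coding sequence at every position, so a read inside that stretch cannot be placed by its letters. Snrpg has 1570 exonic bases, so part of it lies outside that stretch. How reads within the stretch were shared between the 2 was not tested. The sequence of both is printed once, with no capitals because no base differs, and is shown because it makes the gene and its copy indistinguishable over this stretch.
Snrpg and Gm8186: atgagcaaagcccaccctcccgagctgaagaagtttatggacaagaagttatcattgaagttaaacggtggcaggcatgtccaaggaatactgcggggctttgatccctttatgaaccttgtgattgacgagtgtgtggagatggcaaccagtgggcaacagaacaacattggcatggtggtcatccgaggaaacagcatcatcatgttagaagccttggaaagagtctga

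Gm8186 had a mean of 222 TPM over the 8 dishes and took 49.0% to 57.6% of the sum with Snrpg. Snrpg itself, named here after its values were seen, was at 202, 199, 203.97 and 181 TPM in control and 214, 199.9, 174 and 159 TPM in exposed dishes, the widest relative spread among exposed dishes of the Sm genes (coefficient of variation 13.4%). Its difference was -0.08 ± 0.08 (limma adjusted p = 0.7), and leaving out 1 dish moved it to between -0.15 (without exposed dish 1) and -0.007 (without exposed dish 4). With Gm8186 and 2 barely detected copies added, Gm6704 and Gm50286, the difference was -0.06 (limma adjusted p = 0.636). Lsm5 had a copy too, Gm7846, at a mean of 42.5 TPM beside 98.4 TPM for Lsm5, and with this and a barely detected copy, Gm10074, added, Lsm5 differed by 0.04 (limma adjusted p = 0.907).

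**Figure D2:**
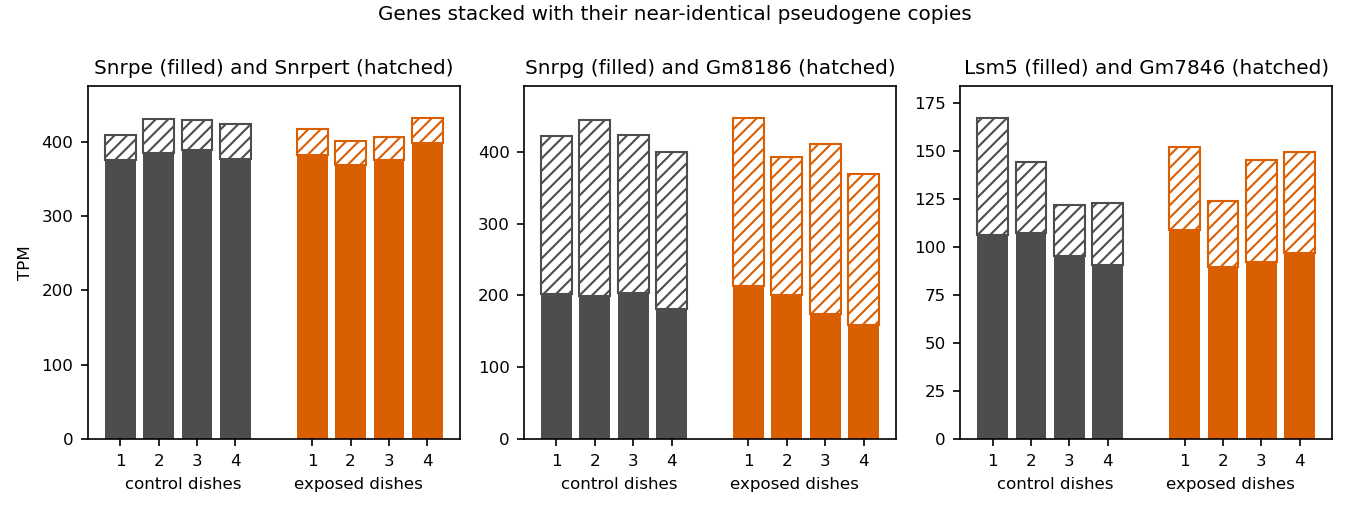
TPM in each dish (bars, from 0) of Snrpe, Snrpg and Lsm5 (filled) with their near-identical pseudogenes Snrpert, Gm8186 and Gm7846 stacked on top (hatched), control dishes grey and exposed dishes orange. Gm8186 takes about as much as Snrpg in every dish, 49.0% to 57.6% of the sum, whereas Snrpert takes 7.73% to 11.1% of its sum with Snrpe.

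Between conditions, none of the 48 genes passed an adjusted p of 0.05 in limma, and neither did any of the 12122 tested genes (0% called), while 1893 genes (15.6%) had an unadjusted p under 0.05. The smallest adjusted p of the 48 was 0.131, for Prpf19. In bulk samples such as these, fewer cells of a type and less RNA per cell cannot be told apart. The description that follows is therefore of sizes, of unadjusted p-values and of how dishes lay. The difference was above 0 for 34 of the 48 genes (70.8%) against 63.7% of all tested genes, and its median was 0.05 on the log2 scale against 0.03. An unadjusted p under 0.05 with the higher level in exposed dishes was held by 13 genes (27.1%) against a background of 12%, and with the lower level by 2 genes (4.17%), Prpf38b and Snrpert, against 3.65%. In 9 genes (18.8%, background 8.01%) every exposed dish lay above every control dish, and in none did every exposed dish lie below (background 1.86%). These backgrounds were not matched for level or spread. The 48 genes were more abundant than all tested genes and varied less among dishes, and the part of this in the shares was not tested. The mitochondrial share and the summed keratins Krt8 and Krt18 also differed between the conditions without overlap, and the part of the keratins in these counts was not tested.

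These shares depended on the scaling of TPM. After scaling by the median of ratios, which sets the median tested gene to about no difference, 5 genes were higher (10.4%, background 5.54%) and 4 lower (8.33%, background 6.22%) at an unadjusted p under 0.05. Non-overlapping dishes were then left in 3 genes above (6.25%, background 3.8%) and 1 below (2.08%, background 3.83%), and 26 genes were above 0 (54.2%, background 49.2%). With TPM rescaled after removing mitochondrial genes, whose share differed between conditions, 7 genes were higher (14.6%, background 5.7%) and 3 lower (6.25%, background 5.57%), and dishes were apart in 3 genes above (6.25%, background 3.8%) and none below (background 3.26%). Upper-quartile scaling gave 5 genes higher (10.4%, background 4.85%) and 4 lower (8.33%, background 6.6%), with dishes apart in 2 above (4.17%, background 3.37%) and 1 below (2.08%, background 4.04%). Only Prpf19 and Sf3b4 kept their dishes apart under the deposited, median-of-ratios, upper-quartile and mitochondria-free scalings alike. Lsm6, Prpf4 and Snrpd3 joined them in having an unadjusted p under 0.05, higher, under all 4 scalings, and Prpf38b and Snrpert did so in the lower direction.

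**Figure D3:**
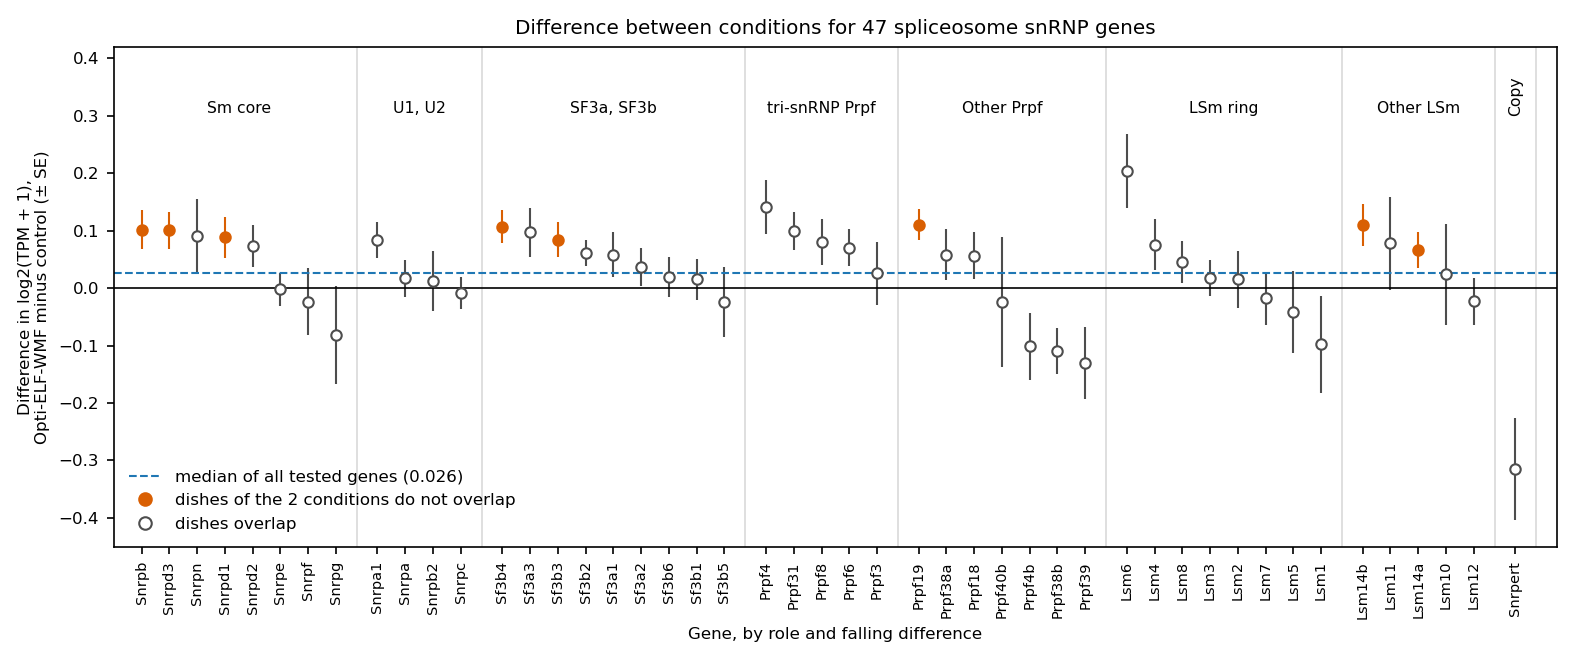
Difference in log2(TPM + 1), exposed minus control, with its SE (limma, 4 dishes per condition) for 47 of the 48 genes by role. Filled orange points mark 8 genes whose dishes did not overlap, all above 0, the dashed line marks the median of all tested genes, and no gene passed an adjusted p of 0.05.

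**Figure D4:**
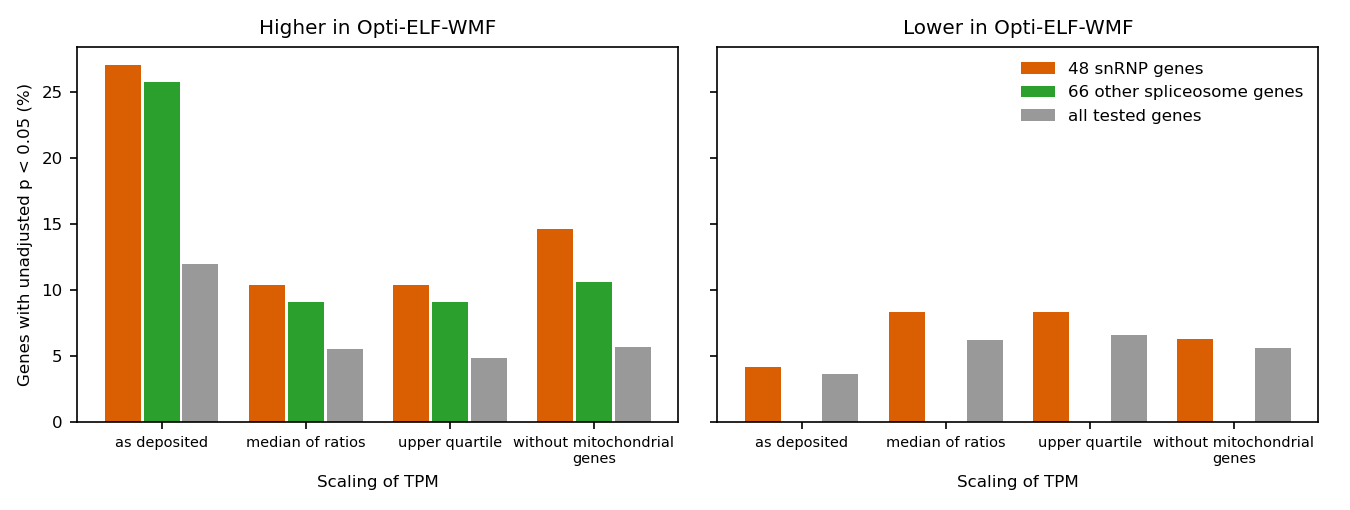
Percent of genes with an unadjusted p under 0.05 in limma, higher (left) or lower (right) in exposed dishes, for the 48 snRNP genes, 66 other spliceosome genes and all tested genes under 4 scalings of TPM. As deposited, 27.1% of the 48 genes were higher against 12% of all tested genes, and after median-of-ratios scaling 10.4% against 5.54%.

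Of the 8 Sm core genes, 5 had a difference above 0 (62.5%, all tested genes 63.7%). An unadjusted p under 0.05 was held by 3, all higher (37.5%, all tested genes 12%). In 3 every exposed dish lay above every control dish (all tested genes 8.01%). The list's median difference was 0.08. Snrpb, which encodes the SmB proteins, was at 307, 308, 288 and 306 TPM in control and 329.9, 339.8, 316 and 313 TPM in exposed dishes. Snrpd3, whose product pairs with SmB in the ring, was at 165, 156, 157 and 171 TPM in control and 171, 174, 175 and 175 TPM in exposed dishes. Snrpd1, which encodes another Sm D subunit, was at 211, 211, 195 and 206 TPM in control and 231, 216, 212 and 217 TPM in exposed dishes. In each of these genes the lowest exposed dish stood above the highest control dish, by 4.59 TPM for Snrpb, 0.23 TPM for Snrpd3 and 0.80 TPM for Snrpd1. The differences were 0.10 ± 0.03 (limma adjusted p = 0.192) for Snrpb, 0.10 ± 0.03 (limma adjusted p = 0.179) for Snrpd3 and 0.09 ± 0.04 (limma adjusted p = 0.263) for Snrpd1. Exons of Snrpd3 share 146 bases with Gucd1 (30.5 TPM) on the opposite strand, and whether counting used the strand is not given in the sources used here.

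The 4 Snrp proteins specific to U1 or U2 gave a median difference of 0.01, with 3 above 0 (75%, all tested genes 63.7%). Snrpa1, the A′ protein of the U2 snRNP, had the smallest p of them, at 99.5, 104, 96.2 and 99.1 TPM in control and 109, 107, 103 and 104 TPM in exposed dishes, a difference of 0.08 ± 0.03 (limma adjusted p = 0.239) with 1 control dish reaching into the exposed range. Snrpa, the A protein of the U1 snRNP and the most abundant of these, was at 163 ± 4.13 TPM in control and 165 ± 6.31 TPM in exposed dishes (SD, n = 4 each), a difference of 0.02 ± 0.03 (limma adjusted p = 0.846) that turned negative under the other 3 scalings. Snrpc, the C protein of U1 (-0.01), and Snrpb2, the B″ protein of U2 (0.01), were close to 0 as well.

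Among the 9 SF3a and SF3b genes, 8 were above 0 (88.9%, all tested genes 63.7%). An unadjusted p under 0.05 was held by 4, all higher (44.4%, all tested genes 12%): Sf3b4, Sf3b3, Sf3b2 and Sf3a3. Sf3b4 (chr3:96172332-96177564, plus strand), which binds pre-mRNA upstream of the branch point, was at 113, 116, 111 and 113 TPM in control and 119, 128, 121 and 121 TPM in exposed dishes. The highest control dish was 2.95 TPM under the lowest exposed dish, and the difference was 0.11 ± 0.03 (limma adjusted p = 0.142). Sf3b3, a scaffold of the complex, was at 91.4, 92.8, 92.9 and 89.0 TPM in control and 93.8, 101, 97.6 and 96.2 TPM in exposed dishes, also without overlap, with a difference of 0.08 ± 0.03 (limma adjusted p = 0.216). Both overlap exons of an opposite-strand gene, Sf3b3 with Cog4 over 128 bases (41.3 TPM) and Sf3b4 with Gm17690 over 85 bases (1.68 TPM).

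Sf3b2, the most abundant gene of the complex and the partner of Sf3b4, was at 274, 273, 271 and 281 TPM in control and 289.6, 290.4, 281 and 287 TPM in exposed dishes, where exposed dish 3 lay 0.06 TPM under control dish 4. Its difference was 0.06 ± 0.02 (limma adjusted p = 0.225). Sf3b1 itself differed by 0.02, Sf3b6, which contacts the branch adenosine, by 0.02, and Sf3b5 by -0.02, all within the spread of the dishes. Of the SF3a genes, Sf3a3 was at 56.3 ± 2.41 TPM in control and 60.3 ± 2.67 TPM in exposed dishes, while Sf3a1 (0.06) and Sf3a2 (0.04) differed less.

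All 5 tri-snRNP genes were above 0 (all tested genes 63.7%), with a list median of 0.08. An unadjusted p under 0.05 was held by 2, both higher (40%, all tested genes 12%), and none had separate dishes (all tested genes 8.01% above). Prpf4, which with Prpf3 forms a U4/U6 complex, was at 15.03, 15.4, 15.8 and 15.03 TPM in control and 17.6, 17.0, 17.7 and 15.7 TPM in exposed dishes, so that only exposed dish 4 lay inside the control range. The difference was 0.14 ± 0.05 (limma adjusted p = 0.195). Prpf31, which binds U4 and is known for its retinal disease mutations, was at 88.0, 92.4, 91.3 and 88.0 TPM in control and 101, 96.8, 96.1 and 92.1 TPM in exposed dishes, a difference of 0.10 ± 0.03 (limma adjusted p = 0.192). Exposed dish 4 was again the one that overlapped, by 0.23 TPM. Prpf8, the U5 protein at the heart of the catalytic centre, was at 160.2, 159, 163 and 162 TPM in control and 158, 184, 172 and 168 TPM in exposed dishes. Its control dishes were nearly alike and its exposed dishes spread on both sides of them, with a difference of 0.08 ± 0.04 (limma adjusted p = 0.38) that was 0.04 without exposed dish 2. Prpf6, the bridge between U5 and U4/U6, differed by 0.07 and Prpf3 by 0.03.

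The other 8 Prpf genes split evenly, 4 above 0 (50%, all tested genes 63.7%) and 4 below. Prpf19 (chr19:10895231-10909559, plus strand), the ubiquitin ligase that gives its name to the complex joining at activation, was at 378, 367, 360.1 and 370.5 TPM in control and 389, 414, 389 and 403 TPM in exposed dishes. Every exposed dish was above every control dish, by at least 10.6 TPM, and the difference was 0.11 ± 0.03 (limma adjusted p = 0.131), a mean level 8.02% above control.

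On the other side, Prpf38b, named for its PRP38 domain, was at 77.0, 81.9, 79.1 and 80.7 TPM in control and 74.1, 73.2, 69.3 and 78.7 TPM in exposed dishes. Exposed dishes 1 to 3 were below every control dish and exposed dish 4 was not, and the difference was -0.11 ± 0.04 (limma adjusted p = 0.226). Prpf39, a U1-associated protein, was at 18.8, 22.9, 22.0 and 20.5 TPM in control and 20.0, 18.0, 18.7 and 19.7 TPM in exposed dishes, overlapping, with a difference of -0.13 ± 0.06 (limma adjusted p = 0.357). It shares 317 exonic bases with Fkbp3 on the opposite strand, a gene at 93.8 TPM, against 20.1 TPM for Prpf39. The kinase gene Prpf4b differed by -0.10 and Prpf40b by -0.02, while Prpf38a (0.06) and Prpf18, a factor of the second catalytic step (0.06), lay above 0.

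**Figure D5:**
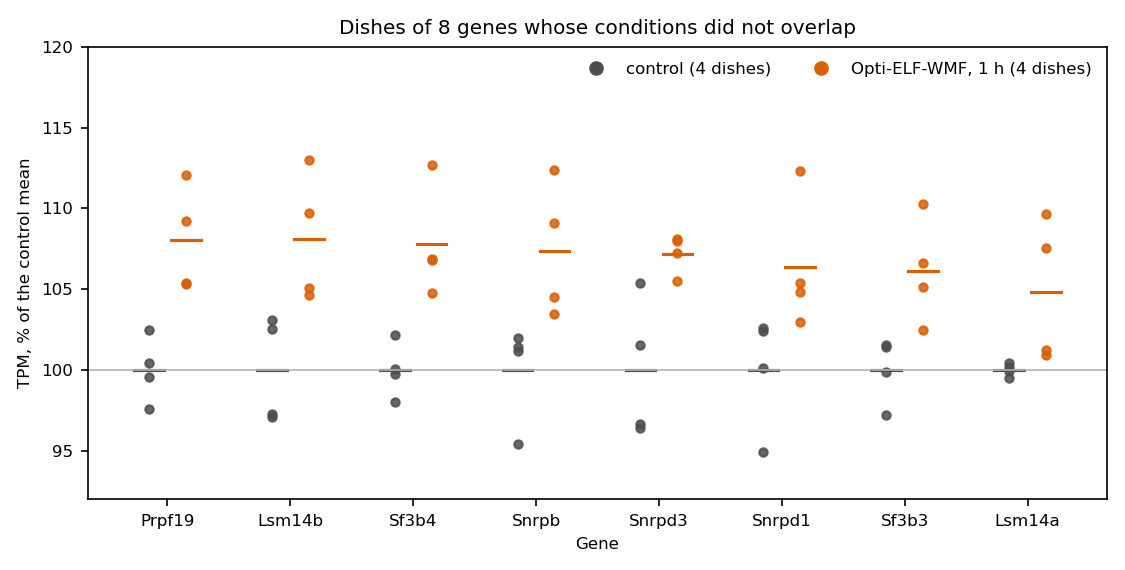
TPM of each dish as percent of the control mean for 8 of the 9 genes whose control (grey) and exposed (orange) dishes did not overlap, with short lines at the means (the axis starts at 92%). Prpf19 and Sf3b4 show gaps of 10.6 and 2.95 TPM between conditions, whereas for Snrpd3 and Lsm14a the lowest exposed dish lies just above the highest control dish.

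In the LSm ring, 5 of 8 genes were above 0 (62.5%, all tested genes 63.7%) and the list's median was 0.02. An unadjusted p under 0.05 was held by 1 gene, higher (12.5%, all tested genes 12%). This was Lsm6, at 78.0, 84.5, 68.2 and 80.6 TPM in control and 89.2, 91.5, 82.9 and 94.9 TPM in exposed dishes. Control dish 3 was low and exposed dish 3 lay below control dish 2, so the groups overlapped, and the difference was 0.20 ± 0.06 (limma adjusted p = 0.182), the largest positive value of the 48 genes. Lsm4 was at 113 ± 6.17 TPM in control and 119 ± 4.85 TPM in exposed dishes (SD, n = 4 each), a difference of 0.08 ± 0.04 (limma adjusted p = 0.456) that was 0.04 without control dish 3. Lsm3, the most abundant, was at 195 ± 7.13 and 197 ± 5.36 TPM, a difference of 0.02 ± 0.03 (limma adjusted p = 0.842) whose sign turned under the other 3 scalings. Lsm8, of the nuclear ring, differed by 0.05 and Lsm1, of the cytoplasmic ring, by -0.10 (limma adjusted p = 0.629), with exposed dishes of Lsm1 from 11.03 to 15.53 TPM around control dishes of 13.7 to 14.1 TPM.

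The 5 remaining LSm-domain genes had a median difference of 0.07. Lsm14a and Lsm14b, whose proteins act in translational repression in P-bodies and not in splicing, were among the 9 genes with separate dishes. Lsm14a was at 113, 114, 114 and 114 TPM in control and 115, 125, 122 and 115 TPM in exposed dishes. Lsm14b was at 50.4, 47.5, 50.1 and 47.4 TPM in control and 55.2, 53.6, 51.3 and 51.1 TPM in exposed dishes. Their differences were 0.07 ± 0.03 (limma adjusted p = 0.35) and 0.11 ± 0.04 (limma adjusted p = 0.194), and under the other 3 scalings neither kept its dishes apart. Lsm10 (0.02) and Lsm11 (0.08), subunits of the U7 snRNP that processes histone mRNA, were low in level and overlapped widely, as did Lsm12 (-0.02).

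The other genes of the spliceosome, 66 in 4 lists that the symbol rule does not reach, were read beside these. Of them 59 (89.4%) had a difference above 0 (background 63.7%), 17 (25.8%) had an unadjusted p under 0.05 and were higher (background 12%), none was lower (background 3.65%), 9 (13.6%) had separate dishes (background 8.01%) and the median was 0.05. After median-of-ratios scaling 47 (71.2%) were above 0 (background 49.2%) and 6 (9.09%) higher at an unadjusted p under 0.05 (background 5.54%). None passed the adjusted threshold.

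By list, 6 of 10 other tri-snRNP and U5 genes (60%), 2 of 18 other U1, U2 and minor spliceosome genes (11.1%), 4 of 22 catalytic spliceosome genes (18.2%) and 5 of 16 snRNP assembly genes (31.2%) were higher at an unadjusted p under 0.05, against 12% of all tested genes. Eftud2, the U5 GTPase that works beside Prpf8, was at 111, 112, 107 and 109 TPM in control and 119, 123, 118 and 119 TPM in exposed dishes, a difference of 0.12 ± 0.03 (limma adjusted p = 0.122), and Snrnp40, the neighbouring U5 subunit, differed by 0.14 ± 0.04 (limma adjusted p = 0.14). Strap and Gemin4, of the SMN complex that loads Sm rings onto snRNA, differed by 0.11 ± 0.02 (limma adjusted p = 0.122) and 0.16 ± 0.04 (limma adjusted p = 0.123). Of the remaining lists, Cdc5l, of the Prp19 complex (0.10), Slu7, a second-step factor (0.12), Dhx15, a helicase that takes spliceosomes apart (0.07), and Snrnp70, the U1-70K protein (0.06), had the smallest p-values.

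Summed, the 48 genes held 5078 ± 58.3 TPM in control dishes and 5233 ± 86.3 TPM in exposed dishes (SD, n = 4 each), which is 0.508% and 0.523% of all TPM. Exposed dish 3, at 5123 TPM, lay below control dish 2, at 5139 TPM, so the sums overlapped. Across the 48 genes the difference was larger at higher GC content of the transcript (Pearson r = 0.35, Spearman rho = 0.39), a description over genes that share the same 8 libraries, and across 12117 tested genes both coefficients were -0.03. A correction for length and GC content gave 15 genes higher (31.2%, all tested genes 12.6%) and 1 lower (2.08%, all tested genes 3.79%) at an unadjusted p under 0.05.

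Promoter windows of 250 bases before to 50 bases after the transcription start (RefSeq, GRCm38.p6) were matched for 38 of the 48 genes, in 48 windows. Windows were searched on both strands for the ETS motif CCGGAAG, which the ETS family of factors binds in many housekeeping promoters. It stood in 16 of the 48 windows (33.3%), in 15 of the 38 genes, against 8.86% of 32851 windows in the whole table and 18.7% of 11598 windows of tested genes. CCAAT stood in 41.7% of windows (38.4% of those of tested genes), the SP1 box GGGCGG in 54.2% (63.4%), the E-box CACGTG in 12.5% (10.2%), TATAAA in 6.25% (7.11%) and TGACGTCA in 6.25% (3.11%), and the NRF1 motif in none (2.17%). No motif of this list contains another.

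The windows of the 2 most abundant genes, Prpf19 (chr19:10894981-10895280, plus strand) and Snrpe (chr1:133610231-133610530, minus strand), are printed because both hold the ETS motif, in capitals, while their dishes differed in how they lay. In Prpf19 it begins 68 bases before the start. In Snrpe matches on both strands overlap, beginning 3 and 6 bases after the start.
Prpf19: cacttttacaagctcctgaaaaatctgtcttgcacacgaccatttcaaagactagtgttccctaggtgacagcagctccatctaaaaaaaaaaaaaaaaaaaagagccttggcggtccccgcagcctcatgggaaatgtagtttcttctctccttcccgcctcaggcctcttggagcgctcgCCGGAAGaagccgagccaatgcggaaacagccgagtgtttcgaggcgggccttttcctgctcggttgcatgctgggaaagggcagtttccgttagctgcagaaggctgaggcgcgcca
Snrpe: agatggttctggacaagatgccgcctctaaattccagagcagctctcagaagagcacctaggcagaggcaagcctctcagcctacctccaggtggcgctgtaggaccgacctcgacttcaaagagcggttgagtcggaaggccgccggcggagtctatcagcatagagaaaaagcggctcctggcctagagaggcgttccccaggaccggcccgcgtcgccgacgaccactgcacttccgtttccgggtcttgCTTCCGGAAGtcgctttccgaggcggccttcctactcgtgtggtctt

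Of the 15 genes with the motif, 10 had a difference above 0 and 2 had separate dishes, with a median difference of 0.03. Of the 23 genes without it in their windows, 18 were above 0 and 3 had separate dishes, with a median of 0.06. Among all tested genes 63.7% were above 0, 8.01% had separate dishes above and 1.86% below, and the median was 0.03. Whether the 2 groups differ was not tested.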

How the data were processed

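Poly(A) RNA of AML12 cells (4 control and 4 exposed dishes) was sequenced with a stranded library kit. Expression was deposited as TPM in 8 tables, each listing 55401 genes. The submitters' processing notes name Trimmomatic 0.39, STAR 2.7.4a, RSEM 1.3.3 and the build mm10. The annotation and the use of strand in counting are not given in the sources used here. TPM keeps no depth, so the precision of each value can be read only from the spread of the dishes.

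Groups came from the sample labels. Genes that reached 1 TPM in 4 or more dishes were compared with limma 3.58.1 (trended eBayes, R 4.3.3) on log2(TPM + 1), which understates the change of low genes, with Benjamini-Hochberg adjustment over all 12122 tested genes. The design had been planned with a count test if the files held counts, which they do not. Positions were read from the GENCODE M21 annotation (GRCm38), where 55141 identifiers and all 48 genes were found. Copies were found with BLAST 2.17.0. The fit was tested on simulated data.

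The genes and lists were chosen with earlier results of these data known. Named genes are, in each of 7 role lists, the most abundant and the 2 with the smallest p, those with separate dishes, the 5 with the largest difference and, in each of 4 lists of other spliceosome genes, the 2 with the smallest p. For 1 of the 48 genes, single values are not reported here, though it enters every count. Snrpert was put in a list of its own after its symbol was met in the tables. Alternatives covered the pseudocount, filter, scaling, length and GC content, the replicate block, leaving out each dish and adding copies to their genes.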

Additional observations from a re-analysis of the deposited data

Results flagged for a closer look

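In 110 sets of 4 dishes (47 of the 48 genes and 8 other spliceosome genes, each in 2 conditions), 6 dishes stood apart from the other 3 of their condition by the Dixon criterion. Chance flags about 1 in 20 such sets, which is 5.5 here, so the number is close to what chance gives. Control dish 2 was high for Sf3a1, at 49.22 TPM beside 44.53 to 45.33 TPM in the other control dishes, and control dish 3 was low for Snrpb, at 288.42 TPM beside 305.93 to 308.2 TPM. Exposed dish 3 was high for the helicase gene Dhx15, at 189.14 TPM beside 182.25 to 183.14 TPM, and for the SMN complex gene Strap, at 159.98 TPM beside 155.2 to 155.94 TPM. The same dish was low for Snrpn, at 9.66 TPM beside 11.37 to 11.68 TPM. Exposed dish 2 was high for the U5 gene Eftud2, at 122.72 TPM beside 118.42 to 119.03 TPM. The causes were not tested.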

How the results depend on the processing

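No gene of the 48 passed an adjusted p of 0.05 in any of 18 alternative settings (smallest 0.1202), and 28 of 31 named genes kept the sign of their difference in every setting. Depth is unknown and limits what small differences can show. The count of all genes passing was 1 instead of 0 with a TPM of at least 1 in every sample and under median-of-ratios, upper-quartile and mitochondria-free scaling, the gene 1110028F11Rik each time, and 0 to 6 when a dish was left out (6 without exposed dish 2). Of the 48 genes, 13 were higher at an unadjusted p under 0.05, and 5, 5 and 7 under those 3 scalings. The count lower was 2, and 4 under median-of-ratios and upper-quartile scaling and 1 with a length and GC correction. Genes with separate dishes numbered 9, and 4, 3 and 3 under the 3 scalings. The median difference of 0.05 became 0.02 under all 3 scalings (0.02198, 0.01771 and 0.02164). Leaving out 1 dish gave 9 to 16 genes higher, 1 to 3 lower (1 without control dish 2, control dish 4 or exposed dish 3), 9 to 15 with separate dishes (15 without exposed dish 4, 13 of them higher and 2 lower) and medians of 0.04 to 0.06 (0.03725 to 0.06229). In those fits 8.85% to 13.5% of all tested genes were higher, 2.76% to 4.29% lower, and 9.11% to 13.4% and 2.47% to 4.04% had separate dishes above and below.

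Lsm3 turned negative under median-of-ratios (-0.01174), upper-quartile (-0.01608) and mitochondria-free scaling (-0.01213). Snrpa did so too (-0.01193, -0.01626 and -0.01232), and without exposed dish 2, where leaving out 1 dish gave -0.008978 to 0.03454. Snrpe turned positive without control dish 2 (0.001724), control dish 3 (0.007766), exposed dish 2 (0.01376) or exposed dish 3 (0.004985), with a range of -0.02338 to 0.01376 when 1 dish was left out. All of these lie near 0, and the cause was not tested. Adding near-identical copies to their genes, an alternative chosen after seeing the data, left 47 genes, since Snrpert was merged into Snrpe. Of these, 13 were higher (27.7%, all tested genes 12%) and 1 lower (2.13%, all tested genes 3.66%) at an unadjusted p under 0.05.

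Replicate numbers in the labels did not pair the dishes: same-numbered dishes had correlated deviations of -0.04 to 0.03, and 0 of 4 correlated best with their own number. With the replicate number as a block, 14 of the 48 genes were higher (29.2%, all tested genes 11.8%) and 3 lower (6.25%, all tested genes 3.79%) at an unadjusted p under 0.05, 9 had separate dishes (18.8%, all tested genes 8.01%), and none passed the adjusted threshold.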
